A study of Mus musculus with 9 samples.

Results

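The 10 core genes of the circadian clock were followed in the non-tumor liver of 9 mice, 3 each in the groups HNK, MUP and WT. They are Arntl, Clock and Npas2, which encode the activators, Cry1, Cry2, Per1, Per2 and Per3, which encode repressors, and Nr1d1 and Nr1d2, which encode the nuclear receptors REV-ERBα and REV-ERBβ. They were taken by gene symbol from the platform's annotation, 10 of 19505 named genes, and each was measured by 1 probe set of a Clariom S mouse array. All mice were C57BL/6 males sampled at 40 weeks of age after prolonged feeding of a high-fat diet. HNK mice carried the MUP-uPA transgene, urokinase-type plasminogen activator under the major urinary protein promoter of hepatocytes, and were injected with honokiol, a compound of Magnolia bark, over the last weeks before sampling. MUP mice carried the same transgene and had control treatment, and WT mice were littermates without the transgene and with control treatment. No source used here gives the hour at which each liver was taken, so that a difference between groups in clock gene levels and a difference in the hour of collection cannot be told apart.

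The clock is a feedback loop of transcription that runs in nearly every cell, including hepatocytes. A heterodimer of BMAL1, the product of Arntl, with CLOCK or its paralog NPAS2 binds E-box sequences and switches on the Per, Cry and Nr1d genes. PER and CRY proteins then inhibit this heterodimer, and REV-ERB proteins repress Arntl, Npas2, Clock and Cry1 through the elements they share with the activating ROR receptors. In mouse liver the transcripts of Arntl and Npas2 therefore peak when those of the Per genes and Dbp are low, Nr1d1 peaks ahead of the Per genes, and Cry1 peaks later than the Per genes. Clock itself varies little over the day.

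The measured values are normalized intensities, given here as log2, and differences are log2 fold changes from a single limma model of all 9 arrays with p-values adjusted over 22206 probe sets. An adjusted p under 0.05 is a call. The medians of the negative control rows, 4.91 to 5.10 on the 9 arrays, mark the level of background, at and below which differences between arrays are not a measure of level. For genes given with values, arrays at or below it are named. Skeletal muscle markers were high on HNK 3 and MUP 2. The median log2 intensity of 10 such markers was 12.41 in HNK 3 and 12.70 in MUP 2, against 3.97 to 4.49 on the other arrays. The median of 7 hepatocyte markers rests on probe sets near the top of the scale, so that it resolves little, and was 19.58 to 19.71 in HNK, 19.60 to 19.64 in MUP and 19.45 to 19.59 in WT. Among them Pck1, an enzyme gene of gluconeogenesis, had log2 fold changes of 1.13 in MUP against WT and -1.06 in HNK against MUP, which did not pass. Medians of 5 macrophage markers ran from 7.40 to 10.01 in HNK and from 7.77 to 10.52 in MUP, against 10.15 to 12.04 in WT, and those of 5 endothelial markers from 7.44 to 8.20 in HNK and from 7.73 to 9.32 in MUP, against 8.84 to 9.79 in WT. Those of 4 cholangiocyte markers were 5.76 to 5.85 in HNK and 5.45 to 5.79 in MUP, against 4.79 to 5.26 in WT. Krt19 lay below the negative controls on all 9 arrays and Epcam on all MUP and WT arrays, so these medians rest partly on background. With dim arrays set to their negative controls, the median log2 fold change went from 0.58 to 0.32 in MUP against WT. In HNK against WT it went from 0.70 to 0.27. Medians of 5 T and B cell markers were 5.17 to 5.91 in HNK, 5.42 to 6.19 in MUP and 5.07 to 5.76 in WT. These ranges overlapped, and Ms4a1 lay below the negative controls on all 9 arrays. Cd4 was called higher in HNK than in WT (log2 fold change 1.56, limma, adjusted p = 0.019), and the other 4 were not called. The macrophage marker Adgre1 was called lower than in WT in MUP (-1.95, limma, adjusted p = 0.03) and HNK (-1.97, 0.037). The endothelial marker Clec4g was called lower in HNK than in WT (-1.88, limma, adjusted p = 0.02). Epcam was called higher in HNK than in WT, a call lost with dim arrays set to their negative controls (limma, adjusted p = 0.24). No stellate cell or adipocyte marker was called. The part of these cell types in the results below was not tested. In whole liver, fewer cells of a type and less RNA per cell cannot be told apart.

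Binding elements of the loop could be read in the RefSeq promoters of 9 of the 10 genes (build GRCm38.p6, 13 windows of 300 bases, with 250 before a transcription start and 50 after it). Per2 has no entry there. The motifs searched on both strands were the E-box CACGTG, the E-prime box CACGTT, the D-boxes TTATGTAA and TTACGTAA, which are sites of DBP and its relatives, the REV-ERB and ROR core AGGTCA, and the cAMP element TGACGTCA. No match overlapped a match of another motif. The stretches shown are those with an E-box, E-prime box or D-box match among the genes with repressor roles, and the AGGTCA core of Arntl. Capitals mark the match.
Per3 (chr4:151044809-151044878, minus strand): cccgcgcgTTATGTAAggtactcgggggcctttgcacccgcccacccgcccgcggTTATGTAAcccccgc
Per1 (chr11:69098766-69098805, plus strand): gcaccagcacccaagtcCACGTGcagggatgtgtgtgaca
Cry1 (chr10:85185097-85185146, minus strand): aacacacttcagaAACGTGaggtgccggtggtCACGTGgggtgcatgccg
Cry2 (chr2:92434213-92434252, minus strand): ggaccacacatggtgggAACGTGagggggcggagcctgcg
Nr1d1 (chr11:98775383-98775422, minus strand): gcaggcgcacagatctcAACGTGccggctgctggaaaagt
Arntl (chr7:113207530-113207559, plus strand): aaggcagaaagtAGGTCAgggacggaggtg

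Per3 was the only one of the 9 genes searched with a D-box match, and it held 2 of them, 205 and 158 bases before its start. A D-box match in the 250 bases before the start was found in 0.93 percent of the 32851 promoters searched, and 7 of them held at least 2. These promoters, called all promoters below, leave out those of a chromosome. The E-box was matched in Cry1 and Per1, 60 and 166 bases before the start, and in 6.0 percent of all promoters. An E-prime box was matched in Cry1, Cry2 and Nr1d1, 79, 166 and 28 bases before the start, and in 3.8 percent of all promoters. AGGTCA was matched before the start in Clock, Per1 and Nr1d2 and in 14.0 percent of all promoters. That of Arntl lay 32 bases after 1 of its annotated starts, and over whole windows 16.3 percent of all promoters held one. The cAMP element was matched in none of the 9 genes and in 1.5 percent of all promoters. A clock gene counted as matched if any of its windows held the motif, while the shares are over single windows. Clock had 3 windows and Arntl and Per1 had 2 each, so gene counts and shares are not on the same footing. A match is a run of letters and was not measured as a bound site, and no relation of matches to the changes between groups was tested.

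In MUP liver the activator genes Arntl and Npas2 fell and the repressor genes Per2, Per3 and Nr1d1 rose relative to WT. Arntl was 6.27-fold lower and Per3 6.84-fold higher. The other 5 genes, Clock, Cry1, Cry2, Per1 and Nr1d2, did not pass the test. So 3 of 10 clock genes were called higher and 2 lower in MUP against WT, where limma called 1.44 and 2.13 percent of all probe sets. The median absolute log2 fold change was 1.22 over the 10 genes and 0.25 over all probe sets. The number of calls became 3 without WT 1 or without WT 3, with Arntl, Per2 and Per3 called in both cases. It became 0 with the methods' test, which does not moderate variances, after the same adjustment.

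**Figure D1:**
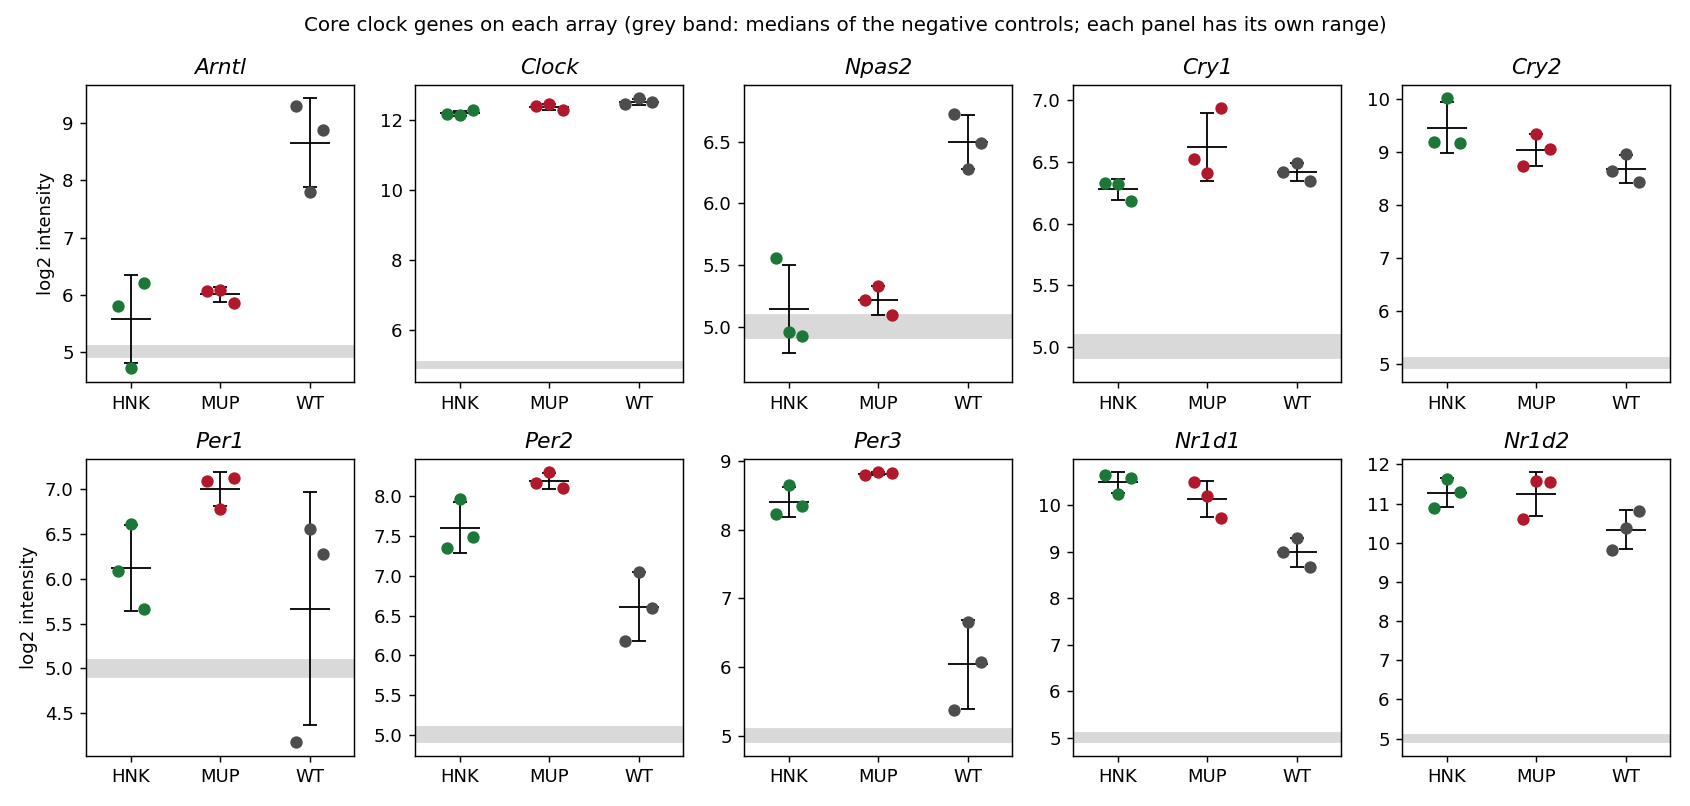
Log2 intensity of each of the 10 core clock genes on the arrays of HNK, MUP and WT livers (points), with the group mean and SD (n = 3 each) and a grey band for the medians of the negative controls. The 3 WT arrays of Arntl lie between 7.79 and 9.30, above all 6 MUP-uPA arrays, and those of Per3 between 5.38 and 6.66, below all of them.

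Arntl, the activator gene without which the loop does not run in mice, had log2 intensities of 5.80, 4.71 and 6.21 in HNK, 6.07, 6.09 and 5.86 in MUP, and 9.30, 7.79 and 8.88 in WT. The lowest WT array lay above the highest MUP-uPA array, and HNK 2 lay at the level of the negative controls. The log2 fold change was -2.65 in MUP against WT (SE 0.42, adjusted p = 0.0059 from limma) and -3.08 in HNK against WT (SE 0.42, adjusted p = 0.0034). With HNK 2 set to its negative controls, HNK against WT gave -2.96. Both calls of Arntl were kept without any single array, with an adjusted p of at most 0.0378 in MUP against WT and 0.0285 in HNK against WT.

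Npas2, which can stand in for Clock as the partner of BMAL1, had log2 intensities of 5.56, 4.96 and 4.93 in HNK, 5.22, 5.33 and 5.10 in MUP, and 6.72, 6.28 and 6.49 in WT. HNK 2 and HNK 3 lay at or below the negative controls, and the MUP arrays lay close above them. The WT arrays were higher than all others. The log2 fold changes were -1.28 in MUP against WT (SE 0.24, adjusted p = 0.014 from limma) and -1.35 in HNK against WT (SE 0.24, adjusted p = 0.016), and the second was -1.28 with the dim arrays set to their negative controls. Omitting MUP 3, WT 1 or WT 3 ended the call in MUP, with adjusted p-values reaching 0.0724. Omitting HNK 2, HNK 3, WT 1 or WT 3 ended it in HNK, with values reaching 0.0771, as did omitting both muscle arrays together (0.052).

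Clock, in contrast, held log2 intensities of 12.17, 12.15 and 12.28 in HNK, 12.39, 12.46 and 12.28 in MUP, and 12.45, 12.62 and 12.51 in WT. MUP and WT overlapped, and the range over all 9 arrays was under that of Arntl within WT alone. Its log2 fold change was -0.15 in MUP against WT (95% interval -0.50 to 0.20) and -0.33 in HNK against WT (-0.68 to 0.02), and neither passed the test (adjusted p = 0.69 and 0.39 from limma), although all HNK arrays lay below all WT arrays. Of the activator genes, Arntl and Npas2 were called and Clock was not. The within-array difference of Npas2 and Clock was lower by 1.13 in MUP than in WT (SE 0.18) and by 1.02 in HNK than in WT (SE 0.29). Its values did not overlap between the groups, with p = 0.1 in each case from a two-sided exact permutation test, the smallest that 3 against 3 arrays allow, and 0.3 after adjustment over 15 such pairs and comparisons.

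Of the period genes, which encode partners of the CRY proteins in the repressor complex, Per3 moved most. Its log2 intensities were 8.23, 8.65 and 8.34 in HNK, 8.79, 8.83 and 8.82 in MUP, and 5.38, 6.66 and 6.08 in WT. The 3 MUP arrays differed by no more than 0.04 and the WT arrays by 1.29. Per3 in MUP exceeded WT by 2.77 on the log2 scale (SE 0.29), the 20th smallest p-value of 22206 (limma, adjusted p = 0.0008), and in HNK by 2.36 (SE 0.29, adjusted p = 0.0022). Without any single array the adjusted p was at most 0.00714 in MUP and 0.0165 in HNK.

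Per2, which is also induced by systemic cues such as glucocorticoids and temperature, had log2 intensities of 7.35, 7.96 and 7.49 in HNK, 8.17, 8.30 and 8.10 in MUP, and 6.18, 7.05 and 6.60 in WT. The 3 groups did not overlap, with HNK in between. Per2 rose in MUP against WT, by 1.58 on the log2 scale (SE 0.26). The limma fit gave an adjusted p of 0.0074, and of at most 0.0412 without any single array. In HNK against WT it was 0.99 (SE 0.26), which did not pass (adjusted p = 0.081).

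Per1, an immediate early member of the family, had log2 intensities of 6.08, 6.61 and 5.66 in HNK, 7.09, 6.78 and 7.12 in MUP, and 4.18, 6.55 and 6.27 in WT. WT 1 lay below its negative controls and far from the other WT arrays. MUP exceeded WT by 1.33 on the log2 scale (SE 0.51), which did not pass (limma, adjusted p = 0.20), and which was 0.59 without WT 1 and 1.09 with WT 1 set to its negative controls. HNK against WT gave 0.45 (SE 0.51, adjusted p = 0.77), and -0.29 without WT 1. The response of Per3 was larger than that of Per1 by 1.44 in MUP against WT (SE 0.44) and by 1.91 in HNK against WT (SE 0.47), where WT 1 enters both. Either difference had p = 0.1 by exact permutation, the smallest possible, and 0.3 after adjustment over the 15. For Per2 and Per1 the same difference was 0.25 in MUP against WT (SE 0.56).

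The cryptochrome genes encode the main inhibitors of the CLOCK and BMAL1 heterodimer. Cry1 had log2 intensities of 6.33, 6.32 and 6.18 in HNK, 6.52, 6.41 and 6.93 in MUP, and 6.42, 6.49 and 6.34 in WT. It stayed within a narrow band, with log2 fold changes of 0.20 in MUP against WT (95% interval -0.27 to 0.67) and -0.14 in HNK against WT (-0.61 to 0.33). The HNK arrays of Cry1 lay below the WT arrays by a small margin (highest HNK 6.33, lowest WT 6.34). Cry2 had 9.20, 10.02 and 9.18 in HNK, 8.74, 9.34 and 9.06 in MUP, and 8.64, 8.97 and 8.44 in WT. All 3 HNK arrays lay above the WT arrays, while MUP and WT overlapped. Its log2 fold change was 0.36 in MUP against WT (95% interval -0.23 to 0.96, adjusted p = 0.55 from limma) and 0.78 in HNK against WT (0.19 to 1.38, adjusted p = 0.19). Neither cryptochrome gene passed the test in either comparison.

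Nr1d1, whose product represses Arntl, had log2 intensities of 10.64, 10.23 and 10.58 in HNK, 10.49, 10.20 and 9.72 in MUP, and 9.0, 9.29 and 8.66 in WT. All MUP-uPA arrays lay above all WT arrays. The log2 fold change was 1.15 in MUP against WT (SE 0.25, adjusted p = 0.028 from limma) and 1.5 in HNK against WT (SE 0.25, adjusted p = 0.012). Omitting MUP 1, MUP 2, WT 1 or WT 3 ended the call in MUP (reaching 0.128), as did omitting both muscle arrays together (0.074). Omitting WT 1 or WT 3 ended it in HNK (reaching 0.0685). Nr1d2, the paralog with an overlapping repressor role, had 10.89, 11.63 and 11.30 in HNK, 10.60, 11.58 and 11.55 in MUP, and 9.81, 10.37 and 10.82 in WT. The lowest MUP array lay under the highest WT array, while all HNK arrays lay above it. The log2 fold changes of Nr1d2, 0.91 and 0.94 (SE 0.32 each), did not pass the test (adjusted p = 0.17 in MUP against WT and 0.18 in HNK against WT from limma). The responses of Nr1d1 and Nr1d2 differed by 0.25 in MUP against WT (SE 0.66) and by 0.56 in HNK against WT (SE 0.53), and these values overlapped between the groups.

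In HNK against WT, then, 2 of 10 clock genes were called higher and 2 lower, where limma called 0.964 and 1.33 percent of all probe sets. They were Per3 and Nr1d1, and Arntl and Npas2, and all 4 were also called in MUP against WT. Both comparisons use the same WT arrays. The number of calls in HNK against WT became 2, Arntl and Per3, without WT 1 or without WT 3, and 0 with the methods' test after adjustment.

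**Figure D2:**
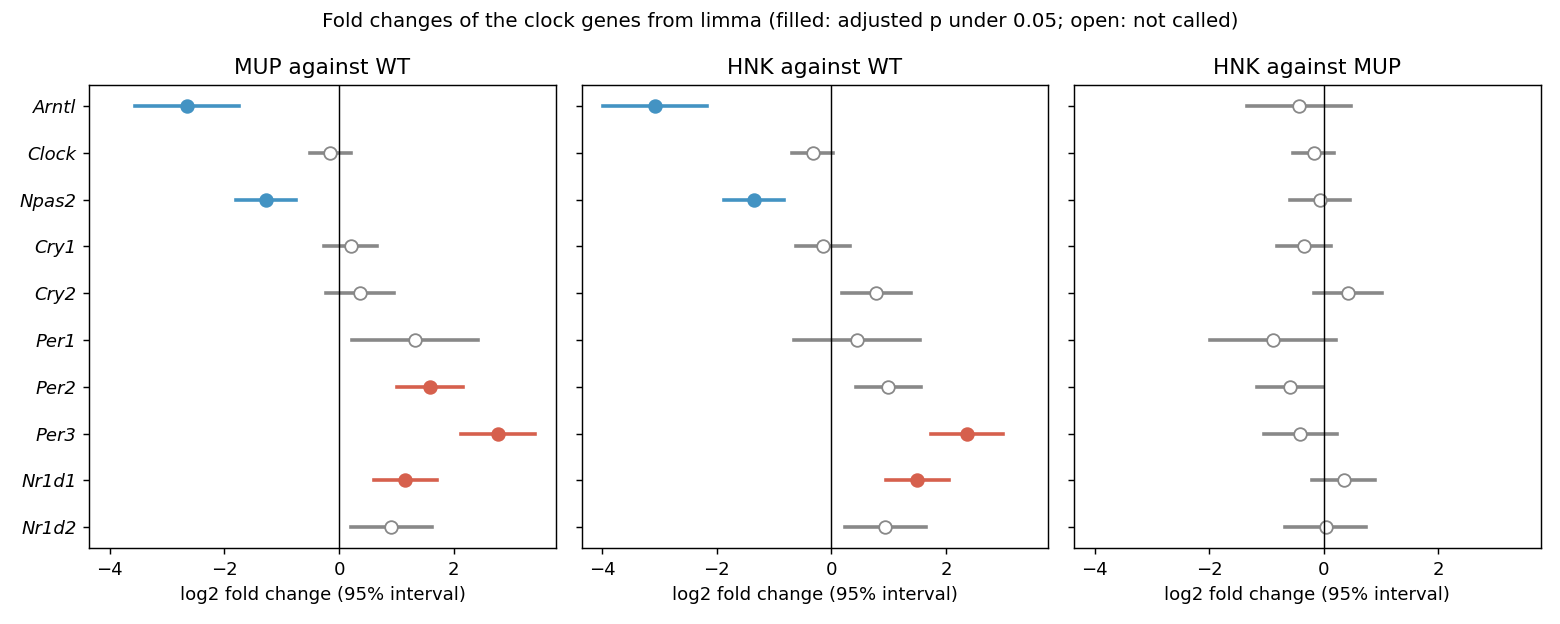
Log2 fold changes of the 10 core clock genes from limma with 95% intervals, in MUP against WT, HNK against WT and HNK against MUP. Filled points passed the test over all probe sets, and open points did not. Arntl and Npas2 lie left of 0 and Per3 and Nr1d1 right of 0 in both comparisons with WT, and no gene was called in HNK against MUP.

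Between honokiol-treated and control MUP-uPA livers, 0 of 10 clock genes passed the test in either direction, where limma called 0.0045 percent of all probe sets higher and 0 percent lower. At an unadjusted p under 0.05 limma gave 463 probe sets higher and 505 lower, and of the clock genes Per2 alone, which was lower in HNK (adjusted p = 0.998). The methods' test without moderated variances gave 3 genes at an unadjusted p under 0.05, the period genes, all lower in HNK, where 2.17 percent of all probe sets were lower at that threshold. The arrays of both groups did not overlap for Per1, Per2, Per3 and Cry1, each lower in HNK, and for no clock gene higher in HNK. Over all probe sets 4.48 percent were lower and 4.11 percent higher without overlap.

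The sizes of the differences in HNK against MUP were -0.88 for Per1 (95% interval -1.98 to 0.22), -0.59 for Per2 (-1.16 to -0.02), -0.41 for Per3 (-1.05 to 0.23) and -0.35 for Cry1 (-0.82 to 0.12), in log2. Relative to WT, the mean of Per2 in HNK had thus moved by 0.99 where that in MUP had moved by 1.58. Nr1d1 had a difference of 0.35 (-0.20 to 0.89) and Cry2 of 0.42 (-0.18 to 1.01), with higher means in HNK. For the activators it was -0.43 in Arntl (-1.34 to 0.48), -0.18 in Clock (-0.53 to 0.17) and -0.07 in Npas2 (-0.59 to 0.46), the last near the level of the negative controls. Without HNK 2, which lay at the negative controls, the difference of Arntl was 0.00. Nr1d2 had 0.03 (-0.68 to 0.74).

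To set activators against repressors on each array, every gene was centred on its mean over the 9 arrays. The mean of the 3 activators was then taken from that of Per1, Per2, Per3, Nr1d1 and Nr1d2. The repressor genes Cry1 and Cry2 were left out, since their peaks lie between. Their log2 fold changes in MUP against WT were 0.20 and 0.36, so the index does not describe all repressor genes. This repressor-minus-activator index was 0.58, 1.53 and 0.65 in HNK, 0.92, 0.96 and 1.10 in MUP, and -2.80, -1.13 and -1.82 in WT. The centring sets the mean index of the 9 arrays to 0, which is no reference level of the clock. All 6 MUP-uPA arrays were above this mean and all 3 WT arrays below it. Its mean was 0.92 ± 0.53 in HNK, 0.99 ± 0.10 in MUP and -1.92 ± 0.84 in WT (SD, n = 3 each). The index exceeded that of WT by 2.91 in MUP and by 2.84 in HNK, and HNK differed from MUP by -0.07. Since genes were chosen for the index with the earlier results known, it is a description and carries no test. Both sides entered it. The centred mean of the 5 repressor genes in the index was 0.18 to 0.56 in HNK and 0.57 to 0.68 in MUP, against -1.55 to -0.48 in WT. That of the activators was -0.97 to -0.40 in HNK and -0.50 to -0.28 in MUP, against 0.65 to 1.24 in WT.

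**Figure D3:**
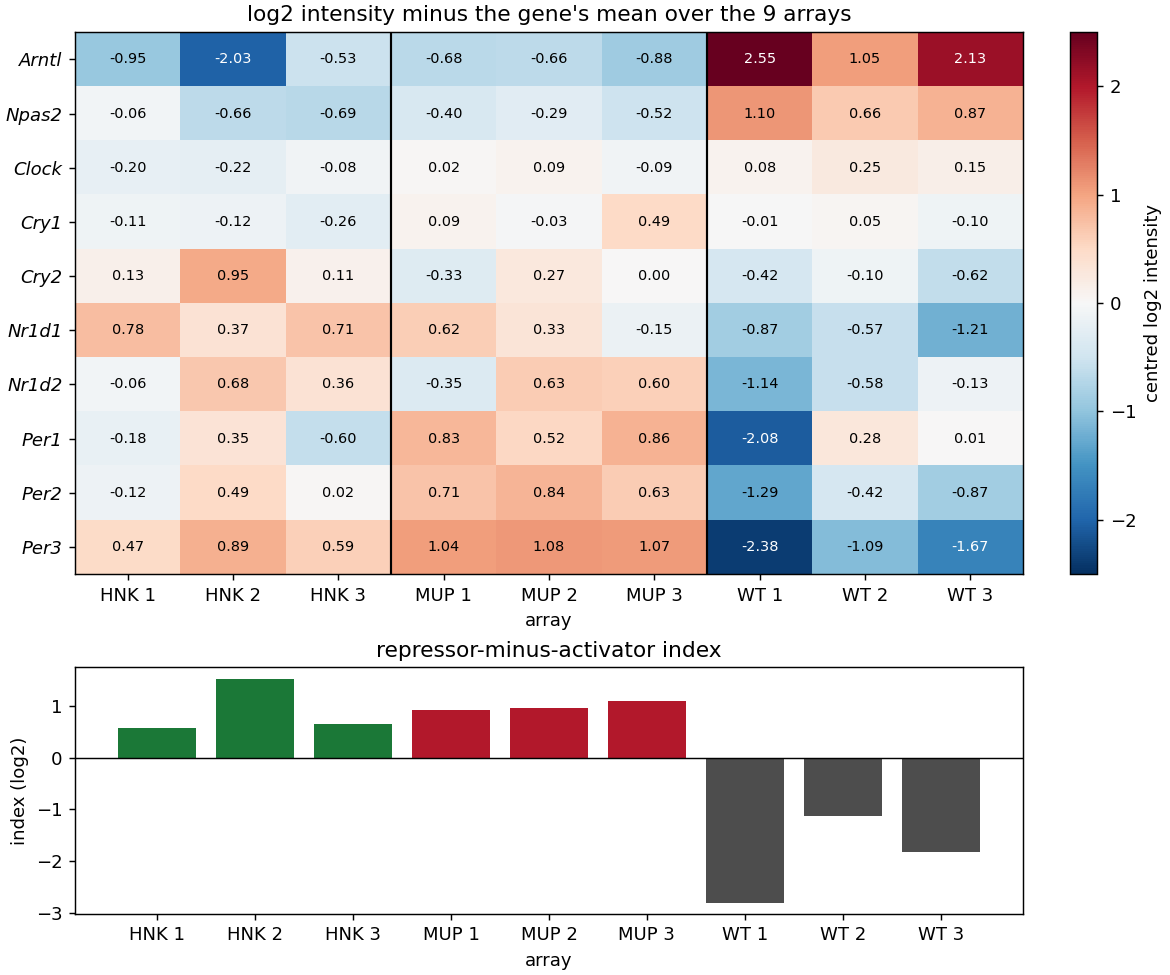
Log2 intensity of each clock gene minus its mean over the 9 arrays (upper panel, columns are arrays) and the repressor-minus-activator index of each array (lower panel, log2). The index runs from 0.58 to 1.53 in HNK and from 0.92 to 1.10 in MUP, against -2.80 to -1.13 in WT.

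The order of the mice within a group differed between genes. In WT, WT 1 had the highest Arntl and Npas2 and the lowest Per1, Per2, Per3 and Nr1d2, and WT 2 had the lowest Arntl and Npas2 and the highest Per1, Per2, Per3 and Nr1d1. WT 3 lay between them for Arntl, Npas2 and the 3 period genes. Clock ran as the period genes did, lowest in WT 1 and highest in WT 2, over a span of 0.17. The other spans were wide, at 1.5 for Arntl, 2.37 for Per1, 1.29 for Per3 and 0.87 for Per2 in log2. Among HNK livers, HNK 2 had the lowest Arntl and the highest Per1, Per2, Per3, Cry2 and Nr1d2, although Nr1d1 was lowest there. MUP livers were closer to each other, with spans of 0.22 for Arntl, 0.35 for Per1, 0.20 for Per2 and 0.04 for Per3, while Nr1d1 and Nr1d2 spanned 0.76 and 0.98. There activators and repressors were not in opposite order, since MUP 2 had the highest Arntl, Clock and Npas2 and also the highest Per2, Per3, Cry2 and Nr1d2, and MUP 3 the lowest of all 3 activators and of Per2 and Nr1d1. With 3 mice per group these orders are descriptions. The arrays with muscle signal, HNK 3 and MUP 2, had an index of 0.65 and 0.96, between the other arrays of their groups.

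Over the 9 arrays Arntl ran with Npas2 (Pearson's r = 0.939) and Clock (0.743) and against Per3 (-0.946), Per2 (-0.875), Nr1d1 (-0.856), Cry2 (-0.806), Nr1d2 (-0.777) and Per1 (-0.610). With Cry1 it was -0.069. These values include the gap between WT and the other arrays and are descriptions. Among 8931 other named genes of sufficient brightness, those with the pattern most like Arntl were Actn4 (r = 0.980), Leprot and Nbdy (0.971 each), Pitpna and Cnih1, and the most opposite were Klf13 (-0.988), Ube2d3, Dhtkd1, Abat and Slc9a3r1. Most like Per3 were Kmt2c (0.991), Fetub, Mug1, Upp2 and Azin1, and most opposite to it were Esd (-0.985), Mtnr1a, Clpx, Mlec and Itm2b. Of these, Upp2 is a known rhythmic gene of the liver and Mtnr1a encodes a melatonin receptor.

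Genes around the core loop were counted in 7 lists. Of 7 output transcription factors and repressors, 3 rose in MUP against WT and 2 in HNK against WT, and none fell, with median log2 fold changes of 1.01 and 0.83 against 0.00 and -0.01 over all probe sets. With arrays below the negative controls set to them, these medians were 0.57 and 0.26. Dbp, a direct E-box target whose protein binds D-boxes, had log2 intensities of 15.05, 15.23 and 15.25 in HNK, 15.11, 15.40 and 15.10 in MUP, and 9.14, 13.07 and 10.27 in WT. As in the period genes, WT 1 was lowest and WT 2 highest. Ciart, a repressor of the loop, had 6.75, 8.42 and 6.67 in HNK, 8.53, 8.73 and 8.91 in MUP, and 3.21, 5.64 and 4.92 in WT, with WT 1 and WT 3 below the negative controls. With these set to their negative controls, its log2 fold change was 3.54 in MUP against WT and 2.09 in HNK against WT. The third, Tef, had all WT and HNK arrays below the negative controls, so no fold is given, and its call in MUP was lost with dim arrays set to their negative controls (adjusted p = 0.15). Nfil3, which competes with DBP for D-boxes and is repressed by REV-ERB, had 7.48, 7.20 and 6.87 in HNK, 8.30, 7.48 and 8.28 in MUP, and 8.12, 7.14 and 7.27 in WT, and did not pass.

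Of 9 rhythmic liver genes under E-box or D-box control, 4 rose in MUP against WT, where 1.44 percent of all probe sets were called higher. In HNK against WT 2 rose and Noct fell, where 0.964 percent were called higher and 1.33 percent lower. The counts of the other lists are to be read against the same shares. Upp2, a uridine phosphorylase gene, rose in both, with log2 intensities of 14.88, 16.59 and 15.37 in HNK, 15.63, 16.25 and 16.15 in MUP, and 9.34, 12.88 and 11.70 in WT. WT 1 was again lowest and WT 2 highest. Cyp7a1, the rate-limiting enzyme gene of bile acid synthesis, had log2 fold changes of 2.93 in MUP (adjusted p = 0.0055 from limma) and 2.55 in HNK (0.016) against WT. Noct, which encodes nocturnin, ran the other way, with -1.10 in MUP against WT (adjusted p = 0.056 from limma) and -1.78 in HNK against WT (0.010).

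**Figure D4:**
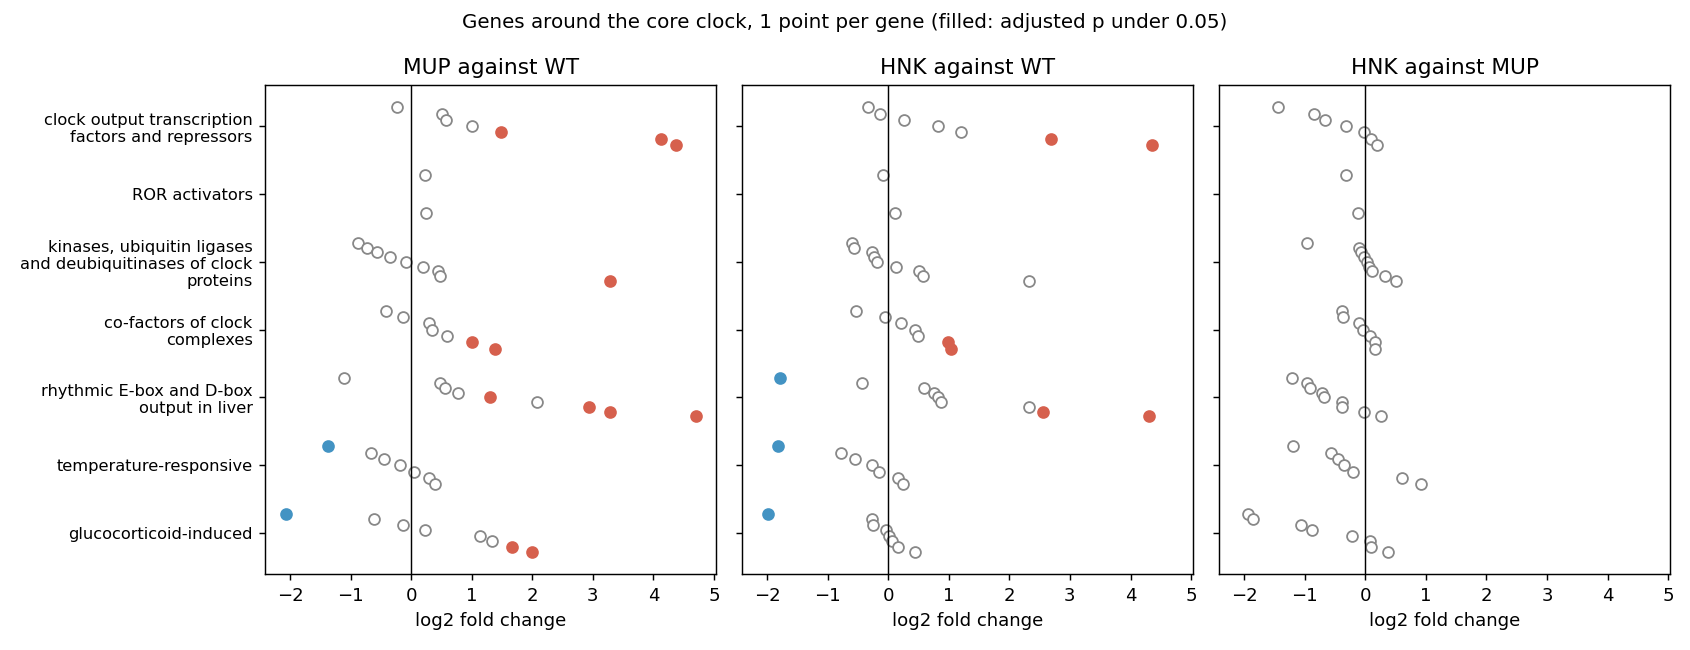
Log2 fold changes of the genes of 7 lists around the core clock, 1 point per gene, in MUP against WT, HNK against WT and HNK against MUP. Filled points passed the limma test over all probe sets. Dbp and Upp2 are the highest in both comparisons with WT, and no point is filled in HNK against MUP. Genes with arrays below the negative controls, Ciart, Usp2 and Tef among them, are plotted as measured.

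Of 9 kinases, ubiquitin ligases and deubiquitinases that act on clock proteins, Usp2 alone rose in MUP against WT by 3.29 on the log2 scale (limma, adjusted p = 0.012). WT 1 (4.51) lay below its negative controls, and with it set to them the value was 3.16 (adjusted p = 0.021). Within their groups its level was highest on the muscle arrays HNK 3 (8.33) and MUP 2 (9.91). It is itself a rhythmic gene and stands in the previous list too. The casein kinase genes Csnk1d, Csnk1e and Csnk1a1, whose products phosphorylate PER proteins, had log2 fold changes of -0.57, -0.88 and -0.73 there and did not pass. Neither measured ROR gene passed, and Rorb lay below the negative controls on all 9 arrays. Of 7 co-factors, Nampt, which encodes an enzyme of NAD+ synthesis, and Crebbp, an acetyltransferase gene, rose in both comparisons with WT. Nampt had log2 fold changes of 1.39 in MUP against WT and 1.03 in HNK against WT (adjusted p = 0.0046 and 0.026 from limma).

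Among 7 temperature-responsive genes, the chaperone gene Hsp90aa1 fell in MUP (-1.37) and HNK (-1.82) against WT, and the RNA-binding protein genes Cirbp and Rbm3 did not pass. Of 8 glucocorticoid-induced genes, a list that holds Per1 itself, Fkbp5 and Zbtb16 rose and Dusp1 fell in MUP against WT. In HNK against WT only Dusp1 passed. No gene of the 7 lists passed in HNK against MUP, where the median log2 fold change was -0.31 for the output transcription factors (-0.11 with dim arrays set to their negative controls), -0.68 for the rhythmic liver genes, -0.55 for the glucocorticoid-induced and -0.35 for the temperature-responsive genes, against -0.01 over all probe sets. Ciart lay lower on all HNK than on all MUP arrays, as the period genes did, with a log2 fold change of -1.44, and did not pass. The same held for other members of the lists, with the largest falls in Zbtb16 (-1.93) and Fkbp5 (-1.85). Rbm3 and Hdac3 were higher in HNK without overlap. Over all probe sets 4.48 percent were lower and 4.11 percent higher without overlap.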

How the data were processed

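RNA of non-tumor liver was hybridised to Clariom S mouse arrays. The deposited values are intensities on a linear scale, already normalized by the authors. The submitters' processing notes name RMA and Affymetrix Expression Console, with versions not given in the sources used here, and the methods name a data analysis tool of Filgen. Of 28846 rows, 6640 control rows were left out, 5222 of them negative controls, and 22206 probe sets were tested. The log2 values entered a linear model in limma 3.58.1, run in R 4.3.3 (lmFit, eBayes with a variance trend, all 9 arrays, no covariates, 6 residual and 5.83 prior degrees of freedom). P-values are two-sided with Benjamini-Hochberg adjustment over all probe sets. Array medians lay between 5.52 and 5.62. Precision is set by the number of arrays.

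The 10 genes, the lists and the rule for named genes (all 10 members, up to 4 called members of a list, and the 5 genes most like and most opposite to Arntl and Per3 by Pearson's r) were chosen with earlier results of these data known. Nfil3, the casein kinase genes, Rorb, Pck1, Cirbp, Rbm3, Krt19, Ms4a1 and Hdac3 are outside that rule and were named after their values were seen. The labels number the mice 1 to 3 in each group, and nothing ties equal numbers to each other. Each array was taken as 1 mouse, and where that is not so the p-values measure a technical spread. The fit was tested on simulated data.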

Additional observations from a re-analysis of the deposited data

How the results depend on the processing

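Changes of the fit kept the direction of every call. The number of clock genes called was 5 in MUP against WT, 0 in HNK against MUP and 4 in HNK against WT, and stayed so with the arrays of both groups alone, array weights, cyclic loess, median centring, no variance trend, only probe sets with a symbol and without the dimmest 40 percent. With the methods' t-test it was 0, 0 and 0 after adjustment, and 5, 3 and 6 at an unadjusted p under 0.05. Leaving out each array in turn gave 3 to 5, 0 to 0 and 2 to 4 calls, and leaving out both muscle arrays gave 4, 0 and 3. With the replicate block it was 6, 0 and 6, adding Nr1d2 in both comparisons with WT and Per2 in HNK against WT. Equal numbers were not paired, since nothing ties them to each other. The deviations of same-numbered arrays correlated by -0.29 to 0.40, which with 3 arrays per group cannot show whether mice were paired. The index difference was 2.47 to 3.30 in MUP against WT, -0.38 to 0.10 in HNK against MUP and 2.4 to 3.23 in HNK against WT when single arrays were left out. Without Arntl it was 2.26 in MUP against WT and 2.09 in HNK against WT, and without Clock 3.51 in MUP against WT.

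With single arrays left out, HNK against MUP ran from -0.75 to 0.00 for Arntl, from -0.27 to 0.04 for Npas2 and from -0.29 to 0.22 for Nr1d2, and Per1 from -0.29 to 0.89 in HNK against WT and from 0.59 to 1.77 in MUP against WT. The sign turned in HNK against MUP for Nr1d2 with array weights (-0.11), without HNK 2 (-0.14) and without MUP 1 (-0.29), for Npas2 without HNK 2 (0.03), without HNK 3 (0.04), without both muscle arrays (0.10) and with dim values at the negative controls (0.00), and in HNK against WT for Per1 without WT 1 (-0.29). None of these was a call, and the cause was not tested. Setting dim values to the negative controls was added after seeing the data. Means over several probe sets were not run, since each clock gene has 1.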
